A study of Homo sapiens with 6 samples.

Results

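The mitochondrial ribosomal protein genes were followed in HEY cells, an ovarian carcinoma cell line, upon knockdown of PQBP1, an RNA-binding protein that works with the spliceosome. They were chosen by name alone, as every row of the gene table named MRPL or MRPS plus a number, with or without a closing A, B or C, and without pseudogenes and hyphenated names. This gave 78 of the 32679 genes in the table, 49 with MRPL names and 29 with MRPS names. The rule left out 25 pseudogene rows and 3 hyphenated rows, the antisense genes MRPL20-AS1 and MRPL23-AS1 and the divergent transcript MRPS30-DT. Poly(A) RNA of 6 samples was sequenced with paired-end reads. In the 3 shNC samples the cells carried a control hairpin (genotype NC) and had no treatment, and in the 3 shPQBP1 samples they carried a hairpin against PQBP1 and had doxycycline at 1 µg/ml. Day 3 is given for all 6. The hairpin and doxycycline therefore differed together, and their shares in any difference cannot be told apart. Per the study's methods, its stable lines were made by lentiviral transduction with puromycin selection. Induction by doxycycline is labelled for the hairpin against PQBP1, and whether the control hairpin was also inducible is not given in the sources used here.

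Mitochondria keep a ribosome of their own, which translates the few proteins encoded by the mitochondrial genome, all of them subunits of the respiratory chain and the ATP synthase. Its rRNAs are transcribed inside the organelle, whereas every one of its proteins is encoded in the nucleus, made in the cytosol and imported. Many of these proteins descend from bacterial ribosomal proteins, others were added in mitochondria, and cancer cells that depend on oxidative phosphorylation need a steady supply of both. By their known place in the human ribosome, 51 of the 78 genes encode large-subunit proteins, MRPS30 and MRPS18A among them in spite of their names, and 26 encode small-subunit proteins. MRPS36 encodes a subunit of the α-ketoglutarate dehydrogenase complex and not of the ribosome, and it was kept because the rule goes by name.

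The values are FPKM, fragments scaled to transcript length and to the depth of the sample, as deposited. Groups were compared on log2(FPKM + 0.1) with limma across the 11413 genes whose mean FPKM was 1 or more, and p-values were adjusted by Benjamini-Hochberg over all of them. All 78 members passed this filter. PQBP1 itself had 7.18, 6.67 and 6.93 FPKM in the shNC samples and 1.68, 1.72 and 1.44 in the shPQBP1 samples, which gave log2 -2.04 ± 0.10 (SE, limma adjusted p = 0.00154). The FPKM of all genes summed to between 278286 and 318484 in a sample, highest in shNC 1, and the number of reads behind a value is unknown. Keratins 7, 8 and 18 (KRT7, KRT8, KRT18) and PAX8 were present, whereas MUC16 and CDH1 were at 0.06 FPKM or less in every sample and EPCAM had a mean near 1. With WT1 and KRT19 these made a list of 9 epithelial or ovarian markers, of which 5 passed the filter. None of the 5 passed the adjusted threshold as deposited. With the GC correction described further on, 4 were higher in shPQBP1 at an adjusted p under 0.05 (limma), where 565 of 11385 genes were. The leukocyte marker PTPRC was listed at 0 in every sample and the endothelial marker VWF did not exceed 0.04, while CD68 (13.2 and 16.1 in shNC and shPQBP1) and CDH5 (2.52 and 3.43) were detected. PECAM1, also endothelial, had 0.23 to 0.25 in shNC and 0.02 to 0.06 in shPQBP1. Of 5 mesenchymal markers, fibronectin (FN1) rose from 43.4 to 143.9 FPKM (log2 fold change 1.72, limma adjusted p = 0.00176), vimentin (VIM, 1174 and 1296) and CDH2 (21.5 and 23.4) did not pass the adjusted threshold, and COL1A1 (0.38 and 0.22) and COL1A2 lay below the filter. The sum of these 5 ran from 1176.34 to 1292.58 in shNC and from 1423.91 to 1521.98 in shPQBP1. After the GC correction VIM also passed the adjusted threshold (log2 fold change 0.27, limma adjusted p = 0.0497). The part of these markers in the results was not tested. In bulk RNA, fewer cells of a kind and less RNA per cell cannot be told apart.

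The shNC 1 sample stood apart. Pearson's correlation of its log2 values across genes with the other samples lay between 0.926 and 0.955, the lowest range of the 6. For the mitochondrial ribosomal protein genes it went mostly upward: shNC 1 held the highest FPKM of 47 of the 78 members, against 9 and 5 in shNC 2 and 3 and 4, 6 and 7 in the shPQBP1 samples, and the lowest FPKM of 11, MRPL1, MRPL19, MRPL42 and MRPL50 among them. The median deviation of the members from their own mean over the 6 samples was 0.17 log2 units in shNC 1 and 0.01 in each of the other shNC samples, and it was -0.07, -0.02 and -0.05 in the shPQBP1 samples. Values without shNC 1 are given beside several of the results that follow.

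At the promoters, the members shared features that the name rule did not use. Of the 78 genes, 69 had an entry in the RefSeq promoter table (assembly GRCh38.p14, 250 bases before to 50 after the start of the gene), and each window was searched on both strands for 4 fixed strings of letters. The core of ETS-family sites, CCGGAAG, the kind of sequence bound by GABPA, was present in 30 of the 69 promoters (43.5%), against 24.3% of the 8155 tested genes with an entry and 12.2% of all 27305 promoters. AANATGGCG, the string bound by YY1, was present in 18 (26.1%), against 9.2% and 3.8%. GCGCNTGCG, the string of NRF1, was present in 12 (17.4%), against 18.7% and 9%, and TATAAA in 3 (4.3%), against 7.8% and 14%. The ETS and YY1 strings were thus more frequent among the members than among expressed genes at large, whereas the NRF1 string was not, and a match is a description of letters, not a measured binding site.

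The stretches around these matches are shown for 7 of the 10 members with the most negative or most positive log2 fold changes, those with a match to the ETS or YY1 string, because they show how the same short strings sit close to the start of genes that lay at opposite ends. Each is 30 bases, written 5′ to 3′ along the gene's own strand from RefSeq GRCh38.p14, with the match in capitals (an ETS match on the other strand reads CTTCCGG).
MRPL27, ETS, chr17:50373175-50373204, minus strand: aacttttcgagaCCGGAAGtgagtgatcga
MRPS26, ETS, chr20:3046003-3046032, plus strand: ttccccgcgccgCTTCCGGggcacggtggc
MRPS21, ETS, chr1:150293856-150293885, plus strand: gtagtgagaaccCTTCCGGtgggctaggta
MRPL37, YY1, chr1:54200187-54200216, plus strand: cctgcgcgcggcAACATGGCGgggtccagg
MRPL50, YY1, chr9:101398577-101398606, minus strand: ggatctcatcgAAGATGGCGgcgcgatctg
MRPL1, YY1, chr4:77862835-77862864, plus strand: ccggagtgcccAACATGGCGgcggccgtaa
MRPL42, YY1, chr12:93467511-93467540, plus strand: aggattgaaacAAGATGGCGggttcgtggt
In MRPL27 the ETS string occurred at 2 places, with its first base at -52 and -8 from the start, and in MRPS21 it also occurred at 2, at -11 and 8. All 4 YY1 strings lay downstream of the start, at positions 9 to 33. Of the 16 promoters of members lower at an unadjusted p under 0.05, 8 held the ETS string (50%) and 3 the YY1 string (18.8%), against 22 (41.5%) and 15 (28.3%) of the other 53.

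The members were expressed over a wide range. Per length, the mean FPKM over the 6 samples ran from 2.33 for MRPL42 to 113.91 for MRPL51, a ratio of 49.0, with a median of 13.6. Of the 78 genes, 56 had a mean of at least 10 FPKM and 5 of at least 50. Their FPKM added up to 1789.43, 1623.89 and 1648.33 in shNC and 1560.12, 1598.45 and 1576.03 in shPQBP1. As a share of the FPKM of all genes, this was 0.562%, 0.551% and 0.542% in shNC and 0.552%, 0.556% and 0.566% in shPQBP1, so that the sums did not overlap between the groups while the shares did. The FPKM of all genes was itself lower in every shPQBP1 sample. Mitochondrially encoded mRNAs and rRNAs made up 98505.6, 87538 and 95340.3 of it in shNC and 74552.3, 77753.7 and 71639.3 in shPQBP1. Their part in the overlap of the shares was not tested.

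Only MRPL27 changed at an adjusted p under 0.05. It encodes a large-subunit protein whose bacterial counterpart, L27, reaches toward the peptidyl transferase centre. Its FPKM was 17.66, 14.24 and 14.9 in the shNC samples and 9.69, 9.81 and 10.46 in the shPQBP1 samples. Every shPQBP1 value lay below every shNC value, and the shPQBP1 values were close together. MRPL27 (ENSG00000108826, chromosome 17 of hg38 from 50367857 to 50373207, minus strand) fell from 15.6 ± 1.81 to 9.99 ± 0.414 FPKM (SD, n = 3 each), or by 35.5% on the fitted scale. In limma this was -0.63 ± 0.10 (SE) in log2, with a 95% interval of -0.88 to -0.38 and an adjusted p of 0.0345. MRPL27 was thus 1 of 78 members (1.28%), against 2.91% of all genes tested. No member combined an unadjusted p under 0.05 with a fold above 2, against 1.52% of all genes tested. The adjusted p of MRPL27 from limma was 0.0253 without shNC 1 and between 0.0693 and 0.148 without each of the other samples, and it lay under 0.05 in 10 of 17 alternative settings (0.0114 to 0.215), with a log2 fold change between -0.70 and -0.51.

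**Figure D1:**
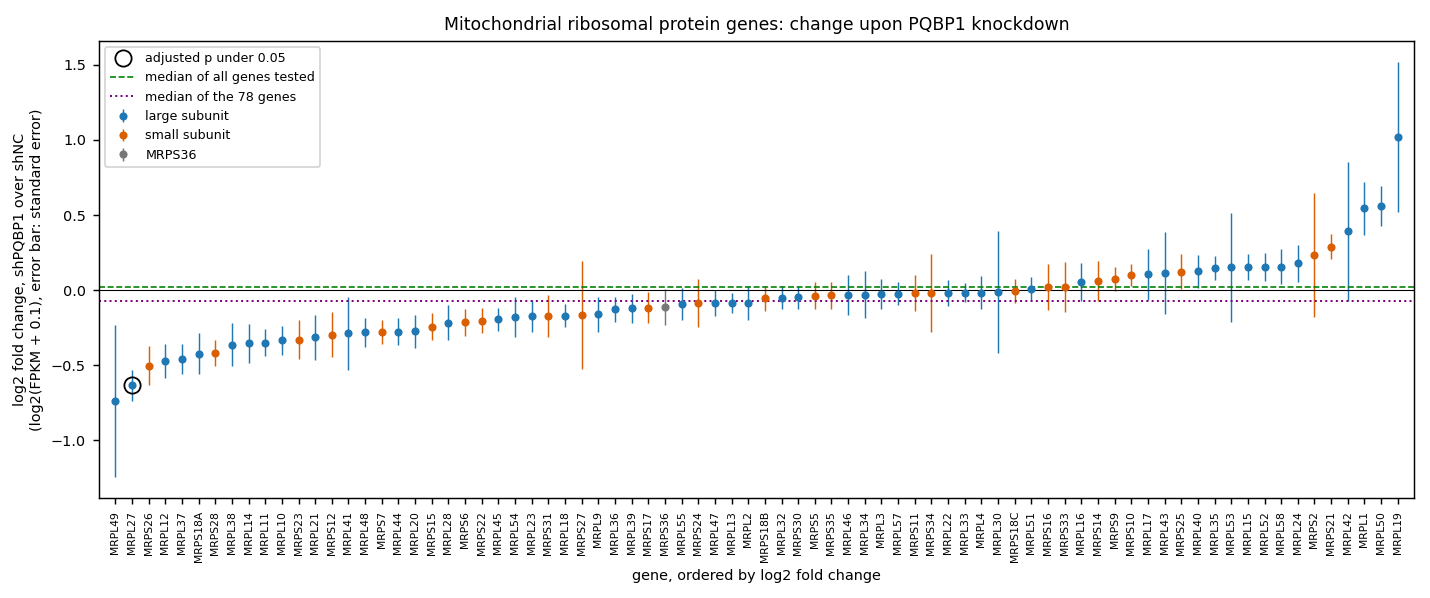
Log2 fold change of each of the 78 genes (y axis, log2(FPKM + 0.1), shPQBP1 over shNC) in order of its value (x axis), with the standard error as a bar, large-subunit genes in blue, small-subunit genes in orange and MRPS36 in grey. The quartiles are -0.24 and 0.05, 55 points lie below 0, and the circled gene, MRPL27, is the one with an adjusted p under 0.05.

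Most members lay slightly lower upon knockdown. The log2 fold change was below 0 in 55 of the 78 members and above 0 in 23, with a median of -0.07 (quartiles -0.24 and 0.05), against a median of 0.02 over all genes tested. Within the groups, the median deviation of the members as deposited varied between samples with an SD of 0.07, with shNC 1 furthest out at 0.17. As deposited, the difference of the median from that of all genes was thus of the size of the spread between samples. With the GC correction described further on, these deviations were 0.04, 0.02 and 0.02 in shNC and -0.06, -0.02 and -0.04 in shPQBP1, without overlap. That difference was not tested. At an unadjusted p under 0.05 (limma), 18 members were lower (23.1%), against 11.7% of all genes tested, and 3 were higher (3.85%), against 11.9%. In 21 members (26.9%) every shPQBP1 value lay below every shNC value, against 17.1% of all genes tested, and in 5 (6.41%) every shPQBP1 value lay above, against 17.3%. These 26 members had p = 0.1 in a two-sided exact permutation test, the smallest p that 3 samples against 3 allow. Without shNC 1, 15 members were lower (19.2%), against 11.4% of all genes tested in that fit, and 9 were higher (11.5%), against 13.4%, and the median was -0.04. In that fit 2 members, MRPL27 and MRPS21, had an adjusted p under 0.05 (2.56%), against 4.07%.

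Whether most members lay below 0 depended on the scaling of FPKM. With the FPKM of each sample rescaled to the same sum, the median of all genes tested moved from 0.02 to 0.13, and that of the members to 0.04, with 44 members above 0 and 34 below. At an unadjusted p under 0.05, 9 members were then lower and 9 higher (11.5% each), where 6.23% and 19.1% of all genes tested were. The members' median lay below that of all genes tested both as deposited and after this rescaling.

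The members with the lowest log2 fold changes, other than MRPL27, did not pass the adjusted threshold. MRPL12, the counterpart of the bacterial stalk protein L7/L12 that recruits the GTPases of translation, is among the most abundant members. Its FPKM was 90.74, 71.53 and 74.28 in shNC and 55.13, 60.83 and 53.93 in shPQBP1, without overlap (log2 fold change -0.47 ± 0.11 SE, limma adjusted p = 0.0815, range over the alternatives 0.0247 to 0.263). The exons of MRPL12 share bases with another annotated gene on the same strand. MRPL37, a large-subunit protein added in mitochondria, had 50.18, 54.73 and 55.42 in shNC and 43.51, 34.88 and 38.5 in shPQBP1 (log2 fold change -0.46 ± 0.10 SE, limma adjusted p = 0.068). Here shNC 1 was the lowest of its group, and the groups were apart all the same. With values freed of the trend on GC content described further on, the log2 fold change of MRPL37 was -0.31 (unadjusted p = 0.088, limma). MRPS26, a small-subunit protein also added in mitochondria, had 10.63, 9.23 and 8.93 in shNC and 7.66, 6.85 and 5.79 in shPQBP1 (log2 fold change -0.50 ± 0.13 SE, limma adjusted p = 0.0979, log2 fold change -0.29 after the GC correction). MRPL49 had the lowest log2 fold change of all members, -0.74, but also the highest standard error, 0.51. Its values of 10.86, 20.65 and 11.53 in shNC and 17, 4.53 and 7.09 in shPQBP1 overlapped (limma adjusted p = 0.391), and its exons share bases with SYVN1 on the other strand. Leaving out 1 sample moved its log2 fold change between -1.26 (without shPQBP1 1) and -0.32 (without shPQBP1 2).

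Among the members with the highest log2 fold changes, none passed the adjusted threshold as deposited. MRPL50, a large-subunit protein added in mitochondria, had 10.76, 14.79 and 13.91 FPKM in shNC and 19.07, 18.23 and 20.57 in shPQBP1 (log2 fold change 0.56 ± 0.14 SE, limma adjusted p = 0.0848), and the log2 fold change was 0.28 after the GC correction. MRPL1, the counterpart of the bacterial protein of the L1 stalk, beside the exit path of the tRNA, had 7.8, 10.75 and 10.71 in shNC and 14.55, 16.38 and 11.78 in shPQBP1 (log2 fold change 0.54, limma adjusted p = 0.144). After the GC correction its log2 fold change was 0.30 (unadjusted p = 0.088, limma). MRPS21, the counterpart of bacterial S21, had 30.28, 26.35 and 26.08 in shNC and 34.52, 33.57 and 32.81 in shPQBP1, and its log2 fold change of 0.29 came with a small standard error of 0.08 (limma adjusted p = 0.122, 0.0355 without shNC 1, range 0.0175 to 0.315). In each of these 3 genes every shPQBP1 value lay above every shNC value. MRPL19 had the highest log2 fold change, 1.02 ± 0.50 (SE, limma adjusted p = 0.268), whose size rested on shNC 1: its FPKM was 1.42, 5.13 and 5.65 in shNC and 7.35, 6.71 and 7.41 in shPQBP1. Without shNC 1 the log2 fold change of MRPL19 was 0.40 (limma adjusted p = 0.0698, range over the alternatives 0.0698 to 0.464). MRPL42, the least abundant member, had 1.16, 3.4 and 1.55 in shNC and 4.08, 1.87 and 1.89 in shPQBP1, and the groups overlapped (log2 fold change 0.39, limma adjusted p = 0.615). The log2 fold change of MRPL42 was 0.08 without shNC 1, between 0.03 (without shPQBP1 1) and 0.82 (without shNC 2) with 1 sample left out, and 0.02 after the GC correction.

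**Figure D2:**
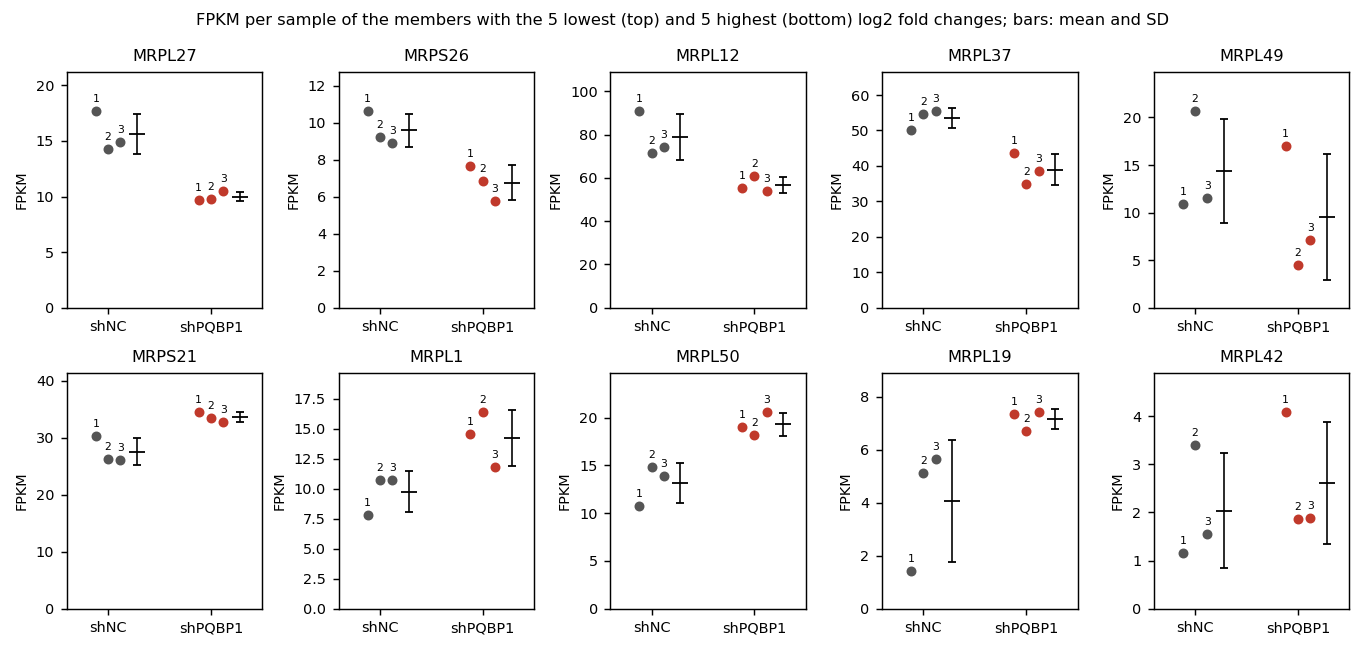
FPKM (y axis, linear from 0) of the 5 members with the lowest log2 fold changes (top row) and the 5 with the highest (bottom row) in each of the 3 shNC samples (grey) and 3 shPQBP1 samples (red), numbered by replicate, with the mean and SD as a bar. The groups are apart in all but MRPL49 and MRPL42, and in MRPL19 the shNC 1 sample lies lowest, at 1.42 FPKM.

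Of the 4 most abundant members, MRPL12 was described above, and the groups overlapped in the other 3. MRPL51, a large-subunit protein added in mitochondria, had 123.26, 107.53 and 109.95 FPKM in shNC and 112.28, 116.94 and 113.5 in shPQBP1, and the 95% interval of its log2 fold change ran from -0.17 to 0.19. MRPL15 had 84.21, 72.1 and 73.51 in shNC and 82.59, 88.8 and 83.94 in shPQBP1 (log2 fold change 0.15, limma adjusted p = 0.301; without shNC 1 the log2 fold change was 0.22 at an unadjusted p of 0.00847, and after the GC correction 0.18 at 0.0151). MRPL47, whose protein sits near the exit of the peptide tunnel, had 73.36, 79.52 and 86.02 in shNC and 78.7, 70.15 and 76.19 in shPQBP1 (log2 fold change -0.08, limma adjusted p = 0.561). The log2 fold change of MRPL47 was -0.30 after the GC correction (limma adjusted p = 0.0637) and -0.14 without shNC 1. Over all members the median standard error was 0.11 (0.06 to 0.51), 49 members had a log2 fold change within 0.2 of 0, and in 47 the whole 95% interval lay within 0.5 of 0. In 6 members the interval reached past a fold of 2. Standard errors above 0.3 were found in 7 members, MRPL49, MRPL19, MRPL42, MRPS2, MRPL30, MRPL53 and MRPS27. In MRPL30, for example, single samples of both groups stood apart, with 5.81, 12.56 and 12.26 FPKM in shNC and 12.08, 12.34 and 5.88 in shPQBP1.

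By place in the ribosome, both subunits had a median below 0. In the large subunit the median was -0.08 over 51 genes, with 12 lower (23.5%) and 2 higher (3.92%) at an unadjusted p under 0.05 (limma), against 11.7% and 11.9% of all genes tested. In the small subunit it was -0.05 over 26 genes, with 6 lower (23.1%) and 1 higher (3.85%). The 45 genes with a bacterial counterpart had a median of -0.05, with 9 lower (20%) and 2 higher (4.44%). The 31 genes of proteins added in mitochondria had a median of -0.06, with 9 lower (29%) and 1 higher (3.23%). These pairs of groups were not tested against each other.

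The genes of the stalk and its base, where the GTPases dock, had the lowest median of the structural groups as listed here, -0.33 over 5 genes. MRPL10, which anchors MRPL12, had 16.35, 13.75 and 13.41 FPKM in shNC and 11.7, 11.27 and 11.34 in shPQBP1 (log2 fold change -0.33, limma adjusted p = 0.123). MRPL11, at the base of the stalk, had 16.15, 16.16 and 14.56 in shNC and 12.18, 13.11 and 11.43 in shPQBP1 (log2 fold change -0.35, limma adjusted p = 0.0938). With MRPL12, 3 of the 5 (60%) were lower without overlap and lower at an unadjusted p under 0.05, against 17.1% and 11.7% of all genes tested. The remaining pair overlapped between the groups: MRPL54 had a log2 fold change of -0.18 and MRPL53 of 0.15. The median GC content of the 5 was 56.9%. Of all tested genes with a GC content of at least 50%, 19.4% were lower at an unadjusted p under 0.05. After the GC correction the median of the stalk genes was -0.21, and MRPL10 was at -0.21. For the central protuberance 4 genes were listed (MRPL38, MRPL40, MRPL46, MRPL48), which need not be all of its genes. Their median was -0.16, and MRPL38 and MRPL48 (50%) were lower at an unadjusted p under 0.05, against 11.7% of all genes tested. After the GC correction this median was -0.05, and the unadjusted p of MRPL38 was 0.288 (limma). Around the exit of the peptide tunnel (MRPL22, MRPL23, MRPL24, MRPL45, MRPL47) the median was -0.08. MRPL45, whose protein faces the inner membrane, was lower, with 51.05, 45.57 and 45.21 FPKM in shNC and 39.75, 41.77 and 42.26 in shPQBP1 (limma adjusted p = 0.203). MRPL24 went the other way, with a log2 fold change of 0.18 as deposited and 0.30 after the GC correction (limma adjusted p = 0.0257). The median of these exit genes was -0.18 after the GC correction, below that of the genes listed for the central protuberance.

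The 3 paralogs of bacterial S18 differed in their values. MRPS18A, which sits in the large subunit, had 33.14, 24.87 and 23.8 FPKM in shNC and 20.43, 19.74 and 20.11 in shPQBP1, without overlap (log2 fold change -0.42, limma adjusted p = 0.14). Its log2 fold change was -0.27 without shNC 1 and -0.26 after the GC correction. MRPS18B had 47.72, 43.16 and 44.55 in shNC and 39.9, 45.55 and 44.97 in shPQBP1 (log2 fold change -0.06). MRPS18C had 8.29, 7.57 and 8.46 in shNC and 7.81, 8.31 and 8.05 in shPQBP1 (log2 fold change -0.01, and -0.24 after the GC correction, limma adjusted p = 0.379). Both of these small-subunit paralogs overlapped between the groups, and the paralogs were not tested against each other.

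GC content moved with the members' values. The canonical transcripts of the members (GENCODE release 44) had a median GC content of 48.2%, from 34.8% to 66.7%, close to the 47.5% of all genes tested, and they were short, with a median of 1242 bases against 2980.5. Across the 78 members the log2 fold change followed GC content with a Spearman's rho of -0.38, against -0.46 across all genes tested, as a description over genes that share the same 6 libraries. In the 37 members with a GC content of at least 50%, the median log2 fold change was -0.17, 30 lay below 0 and 12 were lower at an unadjusted p under 0.05, where 19.4% of all tested genes of that GC content were lower. In the 41 members below 50%, the median was -0.02, 25 lay below 0 and 6 were lower, where 6.14% of such genes were. The medians of all tested genes in the same classes were -0.12 and 0.13.

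When each sample's values were freed of their trend on GC content and transcript length, the members' median was -0.08, against 0.03 for all genes tested, with 47 members below 0 and 31 above. At an unadjusted p under 0.05, 22 members were then lower (28.2%), against 12% of all genes in that fit, and 6 were higher (7.69%), against 15.7%. Of these, 15 lower and 2 higher members were the same as before the correction, and 16 members turned direction, 12 of them from lower to higher. The log2 fold changes of these 16 ran from -0.18 (MRPL54) to 0.15 (MRPL35) as deposited and from -0.12 (MRPS33) to 0.20 (MRPL4) after the correction. At an adjusted p under 0.05 (limma), 6 members passed (7.69%), against 8.24% of all genes. Those lower were MRPL27 (log2 fold change -0.51, limma adjusted p = 0.0114), MRPL12 (-0.25, adjusted p = 0.0247) and MRPS28 (-0.48, adjusted p = 0.0248). Those higher were MRPS21 (0.34, adjusted p = 0.0175), MRPL24 (0.30, adjusted p = 0.0257) and MRPL52 (0.24, adjusted p = 0.0482). MRPS28, MRPL24 and MRPL52 were singled out after their values were seen, and over all alternatives their limma adjusted p ran from 0.0248 to 0.261, 0.0257 to 0.623 and 0.0482 to 0.531. MRPS28, the counterpart of bacterial S1, had 23.53, 19.82 and 21.02 FPKM in shNC and 15.74, 15.69 and 16.55 in shPQBP1, without overlap. The exons of MRPS28 share bases with another annotated gene on the same strand, as do those of MRPL12. MRPL24 had 35.35, 27.38 and 27.29 in shNC and 31.72, 35.81 and 33.79 in shPQBP1, overlapping through shNC 1 alone. Its log2 fold change was 0.18 as deposited and 0.30 without shNC 1 (limma adjusted p = 0.0829). Over the 78 members, Spearman's rho with GC content was 0.19 after the correction, of the opposite sign. The correction also lessened the distance of shNC 1, whose median deviation of the members was then 0.04, against 0.02 in each of the other shNC samples and -0.06, -0.02 and -0.04 in the shPQBP1 samples.

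**Figure D3:**
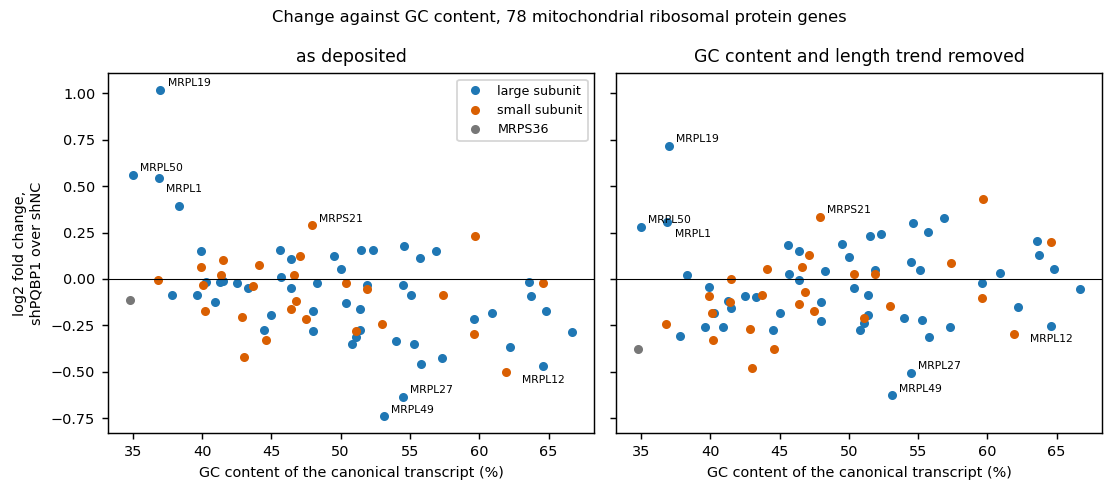
Log2 fold change of the 78 genes (y axis, shPQBP1 over shNC) against the GC content of the canonical transcript in percent (x axis), as deposited on the left and after removal of each sample's trend on GC content and transcript length on the right. Points slope downward on the left (rho -0.38) and slightly upward on the right (rho 0.19), where MRPL27 still lies among the lowest members at -0.51.

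The members lie on 21 chromosomes, and several share sequence or a promoter region with a neighbour. Exon bases are shared with another gene on the same strand in 15 members and with one on the opposite strand in 22, and since the strandedness of the libraries is not stated, reads of such pairs cannot be told apart here. MRPL19 overlaps GCFC2, which had 2.09, 3.12 and 2.98 FPKM in shNC and 5.1, 3.65 and 4.54 in shPQBP1 (log2 fold change 0.69, limma adjusted p = 0.117), higher in shPQBP1 like MRPL19 itself. MRPL43 overlaps TWNK, the mitochondrial DNA helicase, and both varied within the groups more than between them, with log2 fold changes of 0.11 and -0.41 (limma adjusted p = 0.811 and 0.648). Annotated pseudogenes exist for 36 members, 81 in all and 8 for MRPS21 alone, and how reads shared with them were counted is not given in the sources used here. In the table, 3 of the 25 pseudogene rows had a mean FPKM of at least 1, MRPS31P4 (3.20), MRPL45P2 (1.71) and MRPS31P5 (1.07). Without the members that share exon bases with another gene, 47 were left, with a median of -0.08 and 10 lower at an unadjusted p under 0.05 (21.3%), against 11.7% of all genes tested.

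In 18 members a protein-coding gene starts within 1000 bases in the opposite direction. MRPL27 starts 13 bases from EME1, a subunit of a DNA junction endonuclease, which had 4.24, 4.49 and 4.51 FPKM in shNC and 3.5, 3.75 and 3.51 in shPQBP1, without overlap (log2 fold change -0.29, limma adjusted p = 0.115). MRPL50 starts 233 bases from ZNF189, which had 3.66, 6.98 and 6.73 in shNC and 8.73, 8.22 and 8.75 in shPQBP1, like MRPL50 without overlap and higher (log2 fold change 0.61, limma adjusted p = 0.207). MRPL46 and MRPS11 start 63 bases apart, and both overlapped between the groups, with 3.43, 3 and 3.61 against 2.99, 3.04 and 3.82 FPKM for MRPL46 and 4.97, 3.93 and 4.21 against 3.99, 4.69 and 4.22 for MRPS11. Other neighbours did not move with the member. MITD1 was higher without overlap (log2 fold change 0.51, limma adjusted p = 0.106) beside MRPL30 at -0.01, and TCP1 was at 0.16 beside MRPL18 at -0.17. Whether neighbours moved together over all 18 was not tested.

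Ribosomal proteins that carry other names were also measured. DAP3, AURKAIP1, PTCD3 and CHCHD1 of the small subunit and GADD45GIP1 of the large subunit had a median of 0.04, and none passed the adjusted threshold as deposited. AURKAIP1 had 25.61, 19.87 and 20.74 FPKM in shNC and 12.74, 15.94 and 14.22 in shPQBP1, without overlap (log2 fold change -0.62, limma adjusted p = 0.0653), and it passed after the GC correction (-0.40, limma adjusted p = 0.0248). PTCD3 had 5.25, 6.89 and 6.68 in shNC and 7.77, 7.56 and 7.76 in shPQBP1, without overlap in the other direction (log2 fold change 0.30, limma adjusted p = 0.203).

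Among the genes that build and serve the mitochondrial ribosome, 1 assembly gene and 1 translation factor fell at an adjusted p under 0.05. Of all 11413 genes tested, 135 fell at that threshold, and 2.91% changed in either direction. Of 26 assembly and rRNA modification genes, MRM3, a methyltransferase of the large-subunit rRNA, fell from 13.7 ± 1.12 to 9.26 ± 0.359 FPKM (SD, n = 3 each, log2 fold change -0.55, limma adjusted p = 0.0341), and 6 were lower (23.1%) and 3 higher (11.5%) at an unadjusted p under 0.05, against 11.7% and 11.9% of all genes tested. ERAL1, a chaperone of the small-subunit rRNA, had 17.22, 21.59 and 22.04 FPKM in shNC and 13.28, 15.1 and 12 in shPQBP1 (limma adjusted p = 0.0759). Of 17 translation factors, TACO1, the translational activator of MT-CO1, fell from 22.2 ± 2.60 to 13.5 ± 0.98 FPKM (log2 fold change -0.71, limma adjusted p = 0.0313), and 2 were lower (11.8%, near the share of all genes) and 1 higher (5.88%) at an unadjusted p under 0.05. After the GC correction 3 translation factors and 1 assembly gene were lower at an adjusted p under 0.05. Of all 11385 genes in that fit, 373 were lower at that threshold, and 8.24% changed in either direction. TUFM, the elongation factor and the most abundant of these, had a log2 fold change of -0.06 (limma adjusted p = 0.708). Of 10 tested regulators of mitochondrial transcription and biogenesis, none passed the adjusted threshold as deposited, and TFAM, the packaging factor of mitochondrial DNA, passed after the GC correction (log2 fold change 0.06 as deposited and -0.23 after it, limma adjusted p = 0.0367). Among them were the factors of the promoter strings above, GABPA (4.27 ± 1.29 and 6.55 ± 1.04 FPKM in shNC and shPQBP1), YY1 (13.7 ± 0.471 and 14.0 ± 0.412) and NRF1 (3.83 ± 0.566 and 3.18 ± 0.375).

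The rRNAs that the mitochondrial ribosomal proteins bind fell. MT-RNR1, the rRNA of the small subunit, fell from 1968 ± 78 to 1024 ± 16.5 FPKM (log2 fold change -0.94, limma adjusted p = 0.00239), and MT-RNR2, that of the large subunit, from 5368 ± 213 to 3145 ± 125 (log2 fold change -0.77, limma adjusted p = 0.00473). Beside them stood MRPL27 at -0.63, the member that passed the same threshold, and the difference was not tested. In poly(A) libraries the level of an rRNA also depends on how much of it is captured, which was not tested. Over all 15 mitochondrially encoded mRNAs and rRNAs the median was -0.35, and 5 fell at an adjusted p under 0.05, where 135 of all 11413 genes tested did. At an unadjusted p under 0.05 (limma), 11.7% of all genes tested were lower and 11.9% higher. The nuclear-encoded respiratory chain subunits (79 tested) had a median of -0.10, with 10 lower (12.7%, near the share of all genes) and 3 higher (3.8%). The cytosolic ribosomal protein genes (84 tested) had a median of -0.21, with 28 lower (33.3%) and 1 higher (1.19%), RPL22L1. These lists were not tested against the members.

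**Figure D4:**
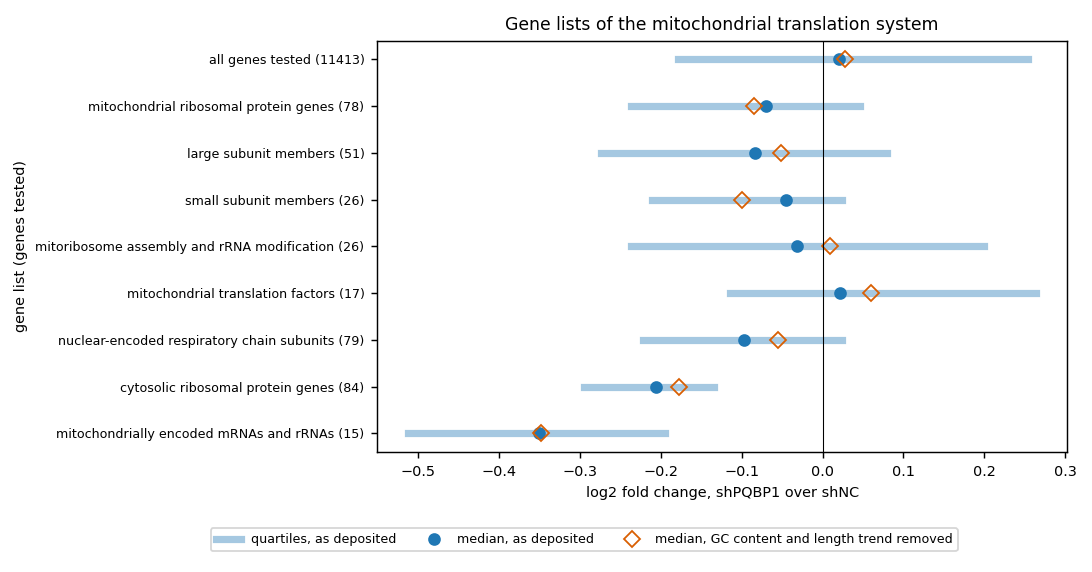
Median log2 fold change (filled points, as deposited) with quartiles (bars) of each gene list, on the x axis as shPQBP1 over shNC, and the median with the trend on GC content and length removed (open diamonds); the number of genes tested stands in brackets on the y axis. The mitochondrial ribosomal protein genes, at -0.07 as deposited and -0.08 after the correction, lie between all genes tested (0.02) and the mitochondrially encoded RNAs (-0.35).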

How the data were processed

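RNA-seq of 6 samples of HEY cells was used, 3 shNC and 3 shPQBP1. Per the study's methods and the submitters' processing notes, reads were mapped to hg38 with HISAT2 (version 2.2.0), sorted with SAMtools (version 1.9) and assembled with StringTie (version 1.3.0), and groups were compared with edgeR. The annotation release, the settings of the FPKM step and the strandedness are not given in the sources used here. The authors deposited 1 table of FPKM per gene and sample, scaled to transcript length and mapped fragments and rounded to 2 decimals. Its columns of the authors' fold changes, p-values and q-values were not used. FPKM values are not counts, so edgeR was not run. The read depth is not given in the sources used here. Low FPKM of 1558 to 1666 single-exon genes per sample showed no steps of whole reads. Such steps could be missed, since the values are rounded and the transcript lengths behind them are unknown.

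Genes whose mean FPKM was 1 or more were tested on log2(FPKM + 0.1), a scale that understates the change of low genes. The test was two-sided, by limma (version 3.58.1) in R (version 4.3.3), using eBayes with a trend of variance on mean after lmFit and Benjamini-Hochberg adjustment. The replicate numbers were not used as pairs. The GC correction fitted natural splines (5 degrees of freedom each) on GC content and log length of GENCODE release 44 transcripts to each sample, for 11385 tested genes. Alternatives were other scalings, pseudocounts, filters, no trend, a replicate block, the GC correction and each sample left out. Leaving out shNC 1 together with the GC correction, and leaving out members with shared exons, were added after seeing the data. The steps were tested on simulated data. The genes, lists and tests were chosen with earlier results of these data known. The genes named are members at an adjusted p under 0.05, the 5 lowest and 5 highest log2 fold changes, the 4 highest mean FPKM, the MRPS18 paralogs and structural groups, and in other lists genes at an adjusted p under 0.05 and the most abundant. Other genes named, such as ERAL1, AURKAIP1, PTCD3 and the neighbours, were chosen after their values were seen. Promoters were read with Python (version 3.11.15), and figures drawn with matplotlib (version 3.10.9).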

Additional observations from a re-analysis of the deposited data

How the results depend on the processing

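Among the recomputed summary counts and medians, 79 values stayed within the limits set for a change and 29 did not. The number of mitochondrial ribosomal protein genes at an adjusted p under 0.05, 1 as deposited, was 2 with the sum of FPKM scaled to a common total, 2 with quantile normalization, 2 with a mean FPKM of at least 10, 0 with all genes detected in any sample (lowest adjusted p of a member 0.0655 from limma), 6 with the GC and length correction, 5 with that correction and without shNC 1, and 0 to 2 with 1 sample left out. It was 1 with both other pseudocounts, median-of-ratios scaling and no trend. With the replicate number as a block it was 0 (0 over all genes tested), and the number lower at an unadjusted p under 0.05 was 10. Deviations of same-numbered samples correlated at -0.19, -0.14 and -0.01, and no shPQBP1 sample correlated best with the shNC sample of its number. With 3 samples per group, these correlations cannot settle whether the numbers pair the samples. The cause of the lower counts with the block was not tested. At an unadjusted p under 0.05, the common total gave 9 higher and 9 lower members, 14 higher without overlap and a median of 0.0426 (all genes 0.13, with 2179 genes higher and 711 lower at an unadjusted p, against 1353 and 1336 as deposited). The correction gave 6 higher at an unadjusted p and 9 higher without overlap (without shNC 1 as well, 9 and 14). Without members that share exons, 10 were lower at an unadjusted p and 13 lower without overlap. With 1 sample left out, 2 to 9 members were higher and 11 to 15 lower at an unadjusted p, 5 to 14 were higher and 23 to 26 lower without overlap, and the median ran from -0.0924 to -0.0403. The highest counts of higher members, 9 and 14, were found without shNC 1.

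The log2 fold changes of 20 members described by name were followed over the settings, and those of the following members turned direction. With the common total they were 0.0277 (MRPL47), 0.0569 (MRPS18B) and 0.104 (MRPS18C), with the GC correction 0.0292 (MRPS18B), and with it and without shNC 1 -0.0716 (MRPL42, 0.39 as deposited). With 1 sample left out, MRPL51 ran from -0.0274 to 0.0710, MRPS18B from -0.0904 to 0.00496 and MRPS18C from -0.0556 to 0.0236. The cause of these differences was not tested. Depth is unknown and counting error cannot be given apart from the spread between samples. No group had the 4 samples that a test for outlying samples needs.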
